A study of Mus musculus with 15 samples.

Results

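Solute carriers are the large group of membrane proteins, named Slc followed by a family number, that move ions, nutrients, metabolites and metals across the plasma membrane and across the membranes of organelles. In the distal colon, carriers of the apical membrane exchange chloride for bicarbonate and sodium for protons and take up short-chain fatty acids made by bacteria, while basolateral carriers load bicarbonate and pass substrates on to the blood. Mitochondrial carriers of family 25 connect the cytosol with the mitochondrial matrix, and other families serve the endoplasmic reticulum (ER), the Golgi, lysosomes and secretory vesicles.

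The genes described here were all genes whose symbol begins with Slc, a family number, the letter a and a member number. These were 216 of the 12897 genes in the 3 deposited count tables, from 45 Slc families. The largest families were family 25, with 37 genes, families 16 and 39, with 12 each, and families 6 and 7, with 11 each, whereas 8 families had a single gene. By name, 5 of the 216 genes matched the symbol rule without being transporters (Slc9a3r1, Slc9a3r2, Slc7a6os, Slc4a1ap and Slc2a4rg-ps), and these were kept as members.

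RNA-seq was performed on the distal colon of C57BL/6 mice (B6, given as C57BL/6J in the methods) and of Irf1-/- mutants, which lack the interferon-regulated transcription factor IRF1 from the germ line, in all cells, on a B6 background. There were 5 groups of 3 mice: 2 sets of untreated B6 controls (set 1 and set 2), untreated Irf1-/- mutants, and B6 mice and Irf1-/- mutants at D26 of AOM/DSS. AOM/DSS combines the carcinogen azoxymethane (AOM), here 7 mg/kg on D1, with dextran sulfate sodium (DSS), which injures the epithelium, here 2% in drinking water from D8 to D11. The methods give an age of 8 to 10 weeks for mice entering this model, and the age of the untreated mice and the sex of all mice were not given in the sources used here. Whole tissue was homogenized, so fewer cells of a type and less RNA per cell cannot be told apart in any value below. Levels are given as CPM, counts scaled to the normalised library size, and differences as log2 fold changes with their standard error (SE). A gene is said to rise or fall where edgeR's quasi-likelihood test gave a p that, adjusted by the Benjamini-Hochberg method over all genes tested, was under 0.05. The study's own threshold was stricter, requiring an adjusted p under 0.01 and a fold of 1.5 or more.

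Libraries held 22266607 to 22869853 reads in the tables. All 10 markers of epithelium and 3 of 4 Hox genes of distal colon were measured in all libraries, while Hoxd12 had no value in treated mutants. The summed epithelial level was 7742 to 10069 CPM per library. Irf1, whose reads were counted over the whole gene, was at 128 to 161 CPM in untreated B6, 79.4 to 117 CPM in untreated mutants, 173 to 227 CPM in treated B6 and 100 to 123 CPM in treated mutants, so it was lower in both mutant groups but passed the test only after treatment (log2 fold change -0.93 ± 0.13, adjusted p = 0.0117, against -0.49 ± 0.12, adjusted p = 0.128, when untreated). The 3 treated B6 libraries stood apart in their dependence on GC content, the share of G and C bases of a transcript. Their level rose by 0.136 to 0.285 log2 units per 10% of GC content, against -0.124 to 0.0316 in the other 12 libraries. Xist, the RNA of the inactive X chromosome, was at 25.2, 5.97 and 11.6 CPM in 3 of the 6 treated libraries (B6 replicates 1 and 2, mutant replicate 1) and at 321 to 3729 CPM in the other 12. Results were therefore recomputed with a GC correction and with Xist as a covariate.

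Slc genes were expressed at about the level of other genes. Per kb of exon, the median over the 206 members measured in all libraries was 7.30 CPM, beside 7.73 CPM over all such genes with a known length, and members ranged from 0.494 CPM per kb for Slc16a7, a monocarboxylate transporter, to 555 CPM per kb for Slc25a5, the ADP/ATP carrier of mitochondria. Near-identical copies of Slc25a5 exist elsewhere in the genome, so its count is uncertain. The 10 highest members made up 40.2% of the summed member level per kb. After Slc25a5 these were Slc6a14, a carrier of neutral and cationic amino acids, at 216 CPM per kb, Slc26a3, the apical chloride-bicarbonate exchanger, at 134 CPM per kb, and Slc5a8, the sodium-coupled butyrate transporter, at 121 CPM per kb. They were followed by Slc16a1, which carries butyrate and lactate, at 116 CPM per kb, the choline-like transporter Slc44a4 at 109 CPM per kb and the phosphate transporter Slc20a1 at 107 CPM per kb. The mitochondrial phosphate carrier Slc25a3 at 72.9 CPM per kb, the creatine transporter Slc6a8 at 69.1 CPM per kb and the sulfate transporter Slc26a2 at 68.9 CPM per kb completed the list. Family 25 alone held 26.9% of the summed member level, and Slc25a5 held 52.8% of that family's sum. Family 6 came next with 8.50%, of which Slc6a14 held 65.0%, and then families 39, 26, 5 and 44 with 5.84%, 5.26%, 5.05% and 4.5%.

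The summed member level was 20205 to 20905 CPM in B6 set 1, 17590 to 19503 CPM in B6 set 2, 17610 to 18370 CPM in untreated mutants, 15675 to 18288 CPM in treated B6 and 15326 to 17693 CPM in treated mutants. All libraries of B6 set 1 lay above the others, and the remaining 4 groups overlapped. Families 26 and 20 had group means per kb that decreased in the order of groups given above. Family 26, the anion exchangers, was at 290 ± 30.2 CPM per kb (SD, n = 3) in B6 set 1 and at 205 ± 52.7, 197 ± 30.6, 170 ± 40.0 and 165 ± 32.2 CPM per kb in B6 set 2, untreated mutants, treated B6 and treated mutants. Family 20, of sodium-phosphate cotransporters, was at 188 ± 21.8 CPM per kb in B6 set 1 and 93.9 ± 40.9 CPM per kb in treated B6. B6 set 2, at a mean of 109 CPM per kb, lay within the SD of treated B6. In mutants the family went from 101 ± 9.79 CPM per kb untreated to 67.7 ± 22.6 CPM per kb treated. Slc20a1 held most of this family's sum. Family 25 moved little by comparison, between 1093 ± 21.5 CPM per kb in B6 set 1 and 986 ± 26.0 CPM per kb in treated mutants.

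The AOM/DSS effect was first taken as the mean of the B6 response (treated B6 against set 1) and the response of the mutants (treated against untreated mutants), in a single fit of 12 libraries. Of 208 members tested, 19 rose and 33 fell, together 25%, beside 17.9% of all 12483 genes. By direction, 9.13% of members rose (8.59% of all genes) and 15.9% fell (9.36% of all genes). The median log2 fold change was -0.01 over members and 0.00 over all genes. At the study's threshold, 3 members fell and none rose, beside 1.30% of all genes in either direction and 0.352% that fell. These were Slc6a14, Slc16a12, which carries creatine and related monocarboxylates, and ferroportin Slc40a1, the only known cellular iron exporter. An unadjusted p under 0.05 was found for 42.3% of members and 34.2% of all genes. Cell markers also moved with treatment. All 7 goblet markers were higher in the mean response (median log2 difference 0.49, 4 passed), and all 9 measured leukocyte markers were higher (0.49, 6 passed). Of 5 measured colonocyte markers 1 was higher (-0.14, 1 fell), whereas 8 of 10 markers of epithelium were higher (0.04, 3 rose and 0 fell). The summed goblet level was 7929 to 12398 CPM in B6 set 1, 16445 to 17482 CPM in untreated mutants, 18868 to 25764 CPM in treated B6 and 16275 to 22174 CPM in treated mutants. The summed leukocyte level in the same order was 222 to 347, 234 to 275, 290 to 417 and 356 to 402 CPM, and that of colonocyte markers 1854 to 2155, 1838 to 2005, 1525 to 1956 and 1094 to 1710 CPM. Cd3e and Ms4a12 were the markers not in the tables, and the part of these cells in the member results was not tested.

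**Figure D1:**
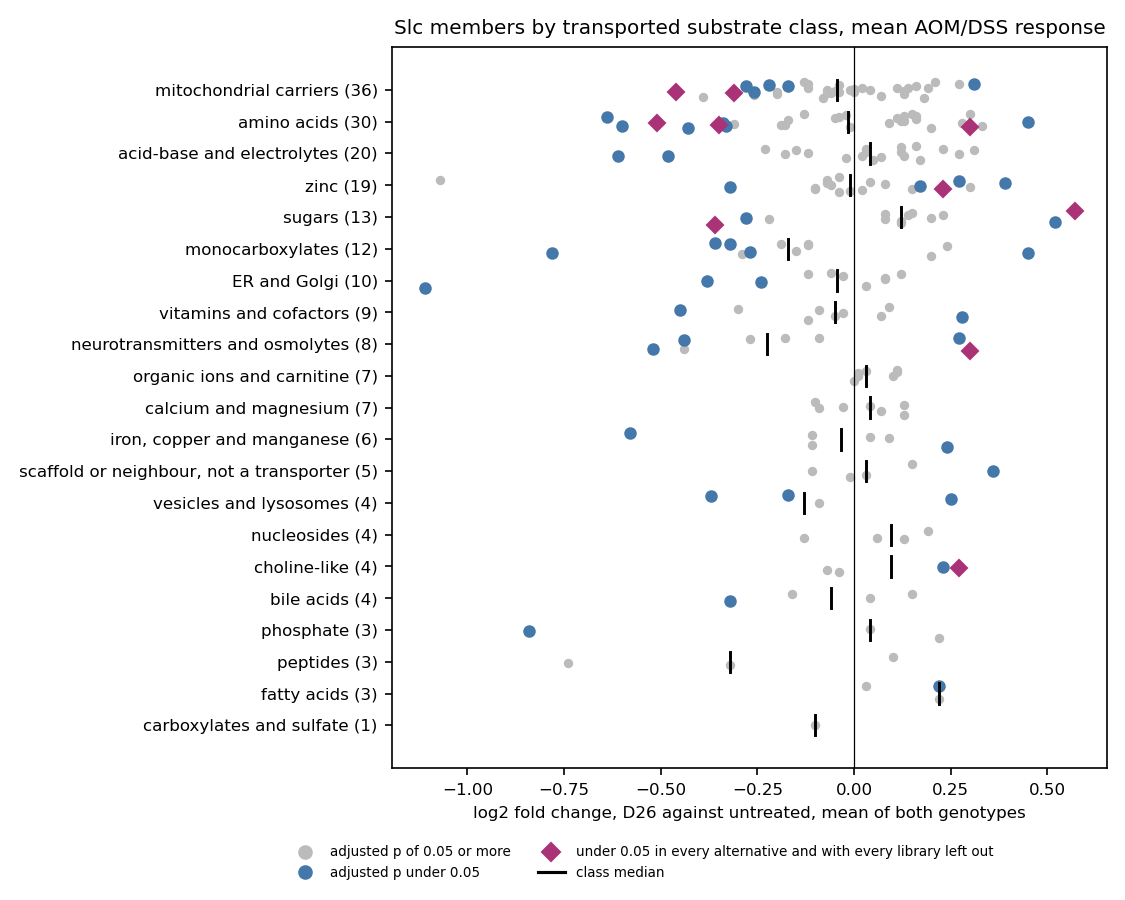
Mean AOM/DSS response of each member (x axis, log2 fold change of D26 against untreated, both genotypes averaged) by substrate class, with the number of members tested in parentheses and the class median as a black bar. Monocarboxylate carriers lay mostly below 0 (median -0.17) and sugar carriers mostly above (median 0.12), and the 10 diamonds mark members that stayed under an adjusted p of 0.05 in every alternative and with every library left out.

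Of the 52 members that passed, 30 did so with each of the 12 libraries left out in turn, 25 after the GC correction and 18 with Xist as a covariate. A set of 10 members passed under all of these and under the 8 other alternatives: Slc6a6, Slc5a9, Slc44a4, Slc43a2 and Slc39a1 rose, and Slc25a36, Slc6a18, Slc2a13, Slc1a7 and Slc25a24 fell. They belong to 8 families. In all, 28 members passed after the GC correction, beside 702 genes up and 445 down of all 12378. With Xist as a covariate 19 members passed, beside 446 genes up and 525 down of all 12483. In the main fit, 1072 of all genes rose and 1168 fell. How many of all genes passed under every alternative was not counted.

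Slc6a6, the taurine transporter, was at 146, 167 and 144 CPM in B6 set 1 and 192, 199 and 182 CPM in treated B6, and at 150, 154 and 148 CPM in untreated and 183, 177 and 187 CPM in treated mutants. All 6 treated libraries lay above every untreated library, also above those of B6 set 2 (128, 147 and 139 CPM). The mean log2 fold change was 0.30 ± 0.05 (adjusted p = 0.00273). Slc5a9, a sodium-coupled sugar transporter, was at 14, 11.9 and 11.2 CPM in B6 set 1 and 15, 20.5 and 14.4 CPM in treated B6, and at 12, 12.8 and 12.5 CPM in untreated and 20.6, 22 and 18.5 CPM in treated mutants. The 12 libraries of the fit did not overlap, although B6 set 2 reached 15.2 CPM, and the mean log2 fold change was 0.57 ± 0.10 (adjusted p = 0.00379), the largest rise among members.

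Slc44a4, known in colon for the uptake of thiamine pyrophosphate, was at 330, 354 and 316 CPM in B6 set 1 and 411, 391 and 405 CPM in treated B6, and at 297, 303 and 287 CPM in untreated and 339, 348 and 381 CPM in treated mutants. Treated lay above untreated libraries within each genotype, by 0.27 ± 0.05 on the log2 scale (adjusted p = 0.00489). Slc39a1, a zinc importer of the plasma membrane, was at 143, 162 and 146 CPM in B6 set 1 and 168, 179 and 183 CPM in treated B6, and at 129, 144 and 138 CPM in untreated and 162, 155 and 162 CPM in treated mutants. It likewise separated within each genotype, with a log2 fold change of 0.23 ± 0.05 (adjusted p = 0.0107). Slc43a2, a carrier of large neutral amino acids, was at 26.9, 21.5 and 24.1 CPM in B6 set 1 and 32.9, 32.8 and 34.9 CPM in treated B6, and at 33.3, 27.4 and 30.2 CPM in untreated and 34.1, 34.7 and 31 CPM in treated mutants. The B6 groups did not overlap and the mutant groups did, and the mean log2 fold change was 0.30 ± 0.07 (adjusted p = 0.0115).

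Among those that fell, Slc25a36, which carries pyrimidine nucleotides into mitochondria, was at 112, 127 and 123 CPM in B6 set 1 and 78.8, 73.3 and 77.3 CPM in treated B6, and at 114, 107 and 103 CPM in untreated and 83.7, 90.5 and 95.1 CPM in treated mutants. Every treated library lay below every untreated one, B6 set 2 included (123, 119 and 108 CPM), and the log2 fold change of -0.46 ± 0.05 had the smallest adjusted p of all members (0.000667). Slc25a24, the ATP-magnesium/phosphate carrier of mitochondria, was at 194, 181 and 201 CPM in B6 set 1 and 156, 164 and 151 CPM in treated B6, and at 214, 210 and 232 CPM in untreated and 174, 170 and 181 CPM in treated mutants. Treated lay below untreated libraries within each genotype, and the log2 fold change was -0.31 ± 0.05 (adjusted p = 0.00233).

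Slc2a13, which carries myo-inositol with protons, was at 73.9, 73.9 and 83.3 CPM in B6 set 1 and 56.5, 55.3 and 56.9 CPM in treated B6, and at 78.9, 65.3 and 71.2 CPM in untreated and 52.6, 65.1 and 61.2 CPM in treated mutants. All treated libraries again lay below all untreated ones, though by only a small margin in the mutants, and the log2 fold change was -0.36 ± 0.06 (adjusted p = 0.00396). Slc1a7, a glutamate transporter of the excitatory amino acid transporter group, was at 29.6, 26.2 and 26.7 CPM in B6 set 1 and 26.4, 23.4 and 23.5 CPM in treated B6, and at 35.6, 36.6 and 34.8 CPM in untreated and 22.9, 28.1 and 23.8 CPM in treated mutants. The mutant groups were apart, the B6 groups overlapped, and the mean log2 fold change was -0.35 ± 0.07 (adjusted p = 0.00565). Slc6a18, a neutral amino acid transporter, was at 34.1, 35.6 and 45 CPM in B6 set 1 and 22, 22.8 and 20.7 CPM in treated B6, and at 41.6, 40.2 and 43 CPM in untreated and 30.7, 40.1 and 37.1 CPM in treated mutants. The fall was seen mainly in B6, where the groups were far apart, and the mean log2 fold change was -0.51 ± 0.08 (adjusted p = 0.00248).

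**Figure D2:**
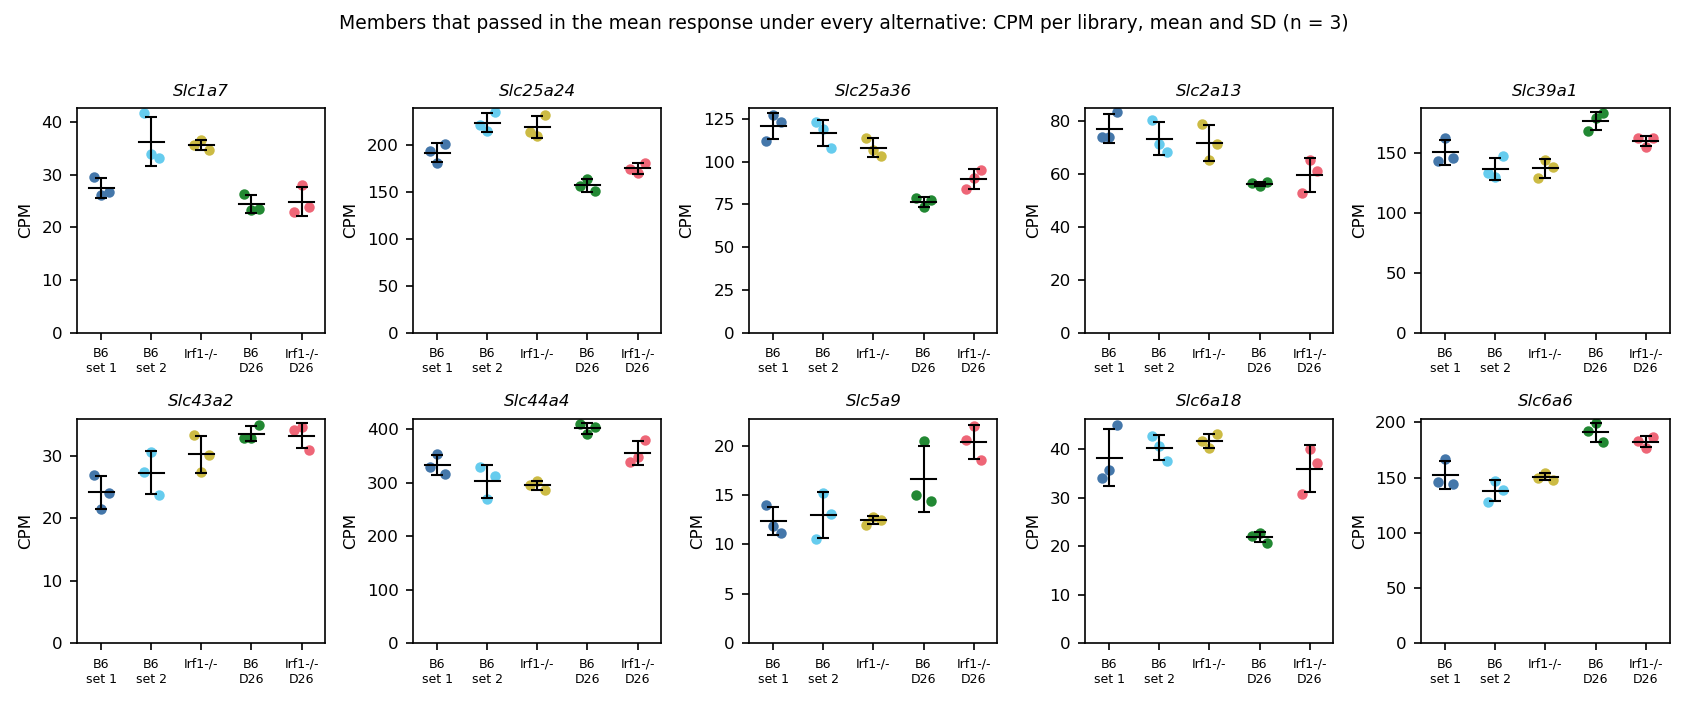
CPM (y axis, from 0) in each library of the 10 members that passed under every alternative and with every library left out, with group mean and SD (n = 3) for the 5 groups on the x axis. For Slc6a6 all 6 treated points lie above the untreated ones, and for Slc25a36 and Slc2a13 all 6 lie below.

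Of a list of 48 members with known roles in colon or mucosal immunity, 47 could be tested in the mean response, where 2 rose, 11 fell and the others did not pass (median log2 fold change -0.04). Of all genes, 8.59% rose and 9.36% fell, and the same shares apply to the counts by substrate class below. The list was chosen with earlier results of these data known, and no test compared it with all genes. Several of the most abundant carriers of the colonocyte membrane were among the members that fell, and their spread between mice was wide. Slc26a3, whose loss causes chloride diarrhoea, was at 960, 1223 and 1313 CPM in B6 set 1 and 897, 578 and 738 CPM in treated B6, and at 665, 822 and 928 CPM in untreated and 601, 563 and 808 CPM in treated mutants. Only the B6 groups were apart, and the mean log2 fold change was -0.48 ± 0.13 (adjusted p = 0.0249). Slc26a2 was at 1260, 1375 and 1237 CPM in B6 set 1 and 775, 422 and 724 CPM in treated B6, and at 708, 868 and 948 CPM in untreated and 547, 750 and 891 CPM in treated mutants. It too was apart only in B6 (mean log2 fold change -0.61 ± 0.15, adjusted p = 0.0158). Slc20a1, a sodium-phosphate cotransporter, was at 1157, 978 and 926 CPM in B6 set 1 and 582, 234 and 665 CPM in treated B6, and at 473, 559 and 576 CPM in untreated and 207, 380 and 448 CPM in treated mutants. It was lower in every treated B6 library than in any of B6 set 1, and in every treated mutant than in any untreated mutant. The mean log2 fold change was -0.84 ± 0.23 (adjusted p = 0.024). B6 set 2, given below, overlapped treated B6. Against B6 set 2 in place of set 1, these 3 genes no longer passed, with adjusted p of 0.194 for Slc26a3, 0.324 for Slc26a2 and 0.227 for Slc20a1.

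Slc37a2, a sugar-phosphate exchanger of the ER, was at 878, 885 and 710 CPM in B6 set 1 and 622, 119 and 355 CPM in treated B6, and at 186, 255 and 298 CPM in untreated and 58.6, 150 and 150 CPM in treated mutants. It had the largest fall of the members that passed, -1.11 ± 0.32 (adjusted p = 0.0322), and also a very wide spread among treated B6 mice. With B6 set 2 (501, 361 and 415 CPM) as control, its adjusted p was 0.169. For Slc37a2, Slc20a1, Slc26a2, Slc6a14, Slc16a12 and Slc40a1, the lowest treated libraries of each genotype were B6 replicate 2 and mutant replicate 1, which were also the lowest of each genotype in Xist. B6 replicate 1, also low in Xist at 25.2 CPM, was the highest treated B6 library for all of these genes but Slc20a1. For Slc26a3 the lowest treated mutant library was replicate 2.

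Both main butyrate carriers fell. Slc5a8 was at 648, 627 and 742 CPM in B6 set 1 and 640, 494 and 562 CPM in treated B6, and at 658, 701 and 643 CPM in untreated and 542, 548 and 560 CPM in treated mutants. The mutant groups were apart and the B6 groups met, with a mean log2 fold change of -0.27 ± 0.07 (adjusted p = 0.0197). Slc16a1 was at 628, 710 and 568 CPM in B6 set 1 and 593, 422 and 454 CPM in treated B6, and at 509, 475 and 466 CPM in untreated and 392, 370 and 447 CPM in treated mutants, with a mean log2 fold change of -0.32 ± 0.09 (adjusted p = 0.0262). After the GC correction neither passed, with adjusted p of 0.452 for Slc5a8 and 0.196 for Slc16a1. Slc16a3, known as the exporter of lactate from glycolytic cells, rose: it was at 8.59, 10.8 and 9.45 CPM in B6 set 1 and 12.5, 15.1 and 10.8 CPM in treated B6, and at 10.7, 11 and 12.4 CPM in untreated and 15.7, 13.3 and 18.5 CPM in treated mutants. Its mean log2 fold change was 0.45 ± 0.11 (adjusted p = 0.0173, and 0.0561 after the GC correction). Of 12 monocarboxylate carriers in all, 1 rose and 4 fell, with a median of -0.17.

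The 3 members past the study's threshold had these values. Slc6a14 was at 903, 873 and 968 CPM in B6 set 1 and 667, 450 and 476 CPM in treated B6, and at 748, 887 and 852 CPM in untreated and 444, 739 and 676 CPM in treated mutants. Every treated library of these groups lay below every untreated one, and the mean log2 fold change was -0.60 ± 0.12 (adjusted p = 0.00775). Slc16a12 was at 19.2, 16.7 and 19.3 CPM in B6 set 1 and 13.6, 6.73 and 10.9 CPM in treated B6, and at 16.1, 20.2 and 15.1 CPM in untreated and 7.19, 11.6 and 12 CPM in treated mutants. It was also apart in both genotypes (-0.78 ± 0.16, adjusted p = 0.00836). Slc40a1 was at 216, 248 and 255 CPM in B6 set 1 and 144, 102 and 129 CPM in treated B6, and at 157, 199 and 190 CPM in untreated and 113, 150 and 202 CPM in treated mutants. Its groups were apart in B6 and overlapped in the mutants, and its log2 fold change of -0.58 ± 0.13 (adjusted p = 0.00972) was at the fold limit. After the GC correction the adjusted p was 0.0699 for Slc6a14, 0.0238 for Slc16a12 and 0.0576 for Slc40a1, and with Xist as a covariate it was 0.0626, 0.0669 and 0.0723.

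Of 30 amino acid carriers, 2 rose and 7 fell, with a median log2 fold change of -0.01. Apart from those given above, carriers of large neutral and glutamine-type substrates did not pass: Slc7a5 was at 0.33 ± 0.15 (adjusted p = 0.131), its heavy chain partner Slc3a2 at -0.05 ± 0.05, the glutamine carriers Slc1a5 and Slc38a2 at -0.04 ± 0.11 and 0.09 ± 0.06, and the basolateral carrier Slc7a8 at -0.31 ± 0.11 (adjusted p = 0.058). The cystine-glutamate exchanger Slc7a11 was at 0.12 ± 0.11. The intestinal peptide transporter Slc15a1 was at -0.32 ± 0.12 (adjusted p = 0.0872). Slc7a9, the light chain of a cystine carrier, was tested only in the mutants, at -0.06 ± 0.38 (adjusted p = 0.958).

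Sugar carriers included both directions: 10 of 13 were higher and 3 lower, with 2 that rose and 2 that fell. Slc2a10, a glucose transporter of intracellular membranes, rose with Slc5a9 (0.52 ± 0.10, adjusted p = 0.0065), and Slc5a1, the sodium-coupled glucose transporter of the intestine, fell with Slc2a13 (-0.28 ± 0.07, adjusted p = 0.017). Slc2a10 did not pass against B6 set 2 (adjusted p = 0.108). Slc5a1 passed after the GC correction but not with Xist as a covariate. The glucose transporters Slc2a1 and Slc2a3, often raised in proliferating and immune cells, were at 0.08 ± 0.06 and 0.12 ± 0.11 and did not pass.

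Of 19 zinc-family carriers, which belong to families 30 and 39, 4 rose and 1 fell. Besides Slc39a1, the zinc importer Slc39a6 rose by 0.39 ± 0.09 (adjusted p = 0.0128). The basolateral zinc importer Slc39a5 fell, from 65.6, 66.9 and 59.8 CPM in B6 set 1 to 62.3, 48.9 and 54.4 CPM in treated B6 and from 56.4, 64.4 and 68.9 CPM in untreated to 42.1, 46.3 and 52.8 CPM in treated mutants. Only the mutant groups were apart, and the mean log2 fold change was -0.32 ± 0.08 (adjusted p = 0.0139). Of the zinc-family carriers that passed, Slc39a1, Slc39a6 and Slc39a5 still passed after the GC correction. With Xist as a covariate only Slc39a1 of them did. The apical importer Slc39a4 was at 0.30 ± 0.11 (adjusted p = 0.0691), and the values of Slc39a8, Slc39a10, Slc39a14 and the zinc exporter Slc30a1 were 0.08, -0.04, 0.04 and -0.07. Among 6 carriers of iron, copper and manganese, 1 rose and Slc40a1 fell. The divalent metal carriers Slc11a1, of phagosomes, and Slc11a2, of apical membranes and endosomes, were at -0.11 ± 0.06 and 0.04 ± 0.07, and the mitochondrial iron carrier Slc25a37 was at 0.04 ± 0.08.

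Of 36 mitochondrial carriers, 1 rose and 6 fell, with a median of -0.04. The most abundant ones did not pass, with log2 fold changes of -0.12 ± 0.05 for Slc25a5 (adjusted p = 0.0837) and 0.00 ± 0.04 for its paralog Slc25a4. Slc25a46, which acts in mitochondrial membrane dynamics, fell (-0.28, adjusted p = 0.00707). Of 10 carriers of the ER and Golgi, 3 fell and none rose, with a median of -0.05. Slc35a3, which brings UDP-N-acetylglucosamine into the Golgi, was at 357, 397 and 429 CPM in B6 set 1 and 276, 282 and 276 CPM in treated B6, and at 402, 444 and 408 CPM in untreated and 339, 354 and 363 CPM in treated mutants. Its groups were apart within both genotypes, by -0.38 (adjusted p = 0.00166, and 0.0752 after the GC correction).

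Among other transport roles, Slc5a3, which takes up the osmolyte myo-inositol, fell (-0.52, adjusted p = 0.00702), as did Slc18a2, which loads monoamines into vesicles (-0.44, adjusted p = 0.00994). The serotonin reuptake transporter Slc6a4 was at -0.44 ± 0.16 (adjusted p = 0.0799). Slc52a3, a riboflavin transporter, rose by 0.28 ± 0.07 (adjusted p = 0.0127), and Slc27a4, a fatty acid transport protein, rose by 0.22 ± 0.05 (adjusted p = 0.0107). Slc9a3r2, a scaffold protein that binds the sodium-proton exchanger Slc9a3 and is not itself a carrier, rose by 0.36 ± 0.07 (adjusted p = 0.00594). After the GC correction, the adjusted p was 0.0828 for Slc25a46, 0.0517 for Slc5a3, 0.0177 for Slc18a2, 0.076 for Slc52a3, 0.0925 for Slc27a4 and 0.0759 for Slc9a3r2. With Xist as a covariate, Slc25a46, Slc5a3, Slc52a3 and Slc9a3r2 passed, and Slc18a2 and Slc27a4 did not.

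Of 20 acid-base and electrolyte carriers, Slc26a2 and Slc26a3 fell and none rose. The apical sodium-proton exchangers Slc9a2, Slc9a3 and the Golgi exchanger Slc9a8 were at 0.03 ± 0.05, 0.12 ± 0.10 and 0.05 ± 0.06. The bicarbonate carriers Slc4a2, Slc4a4 and Slc4a7 were at 0.12 ± 0.08, -0.23 ± 0.13 and 0.03 ± 0.08. The sodium-potassium-chloride cotransporter Slc12a2, which loads chloride for secretion, was at -0.15 ± 0.06 (adjusted p = 0.0803), and the potassium-chloride cotransporter Slc12a7 was at 0.02 ± 0.09. None of the 7 calcium and magnesium carriers, 4 nucleoside carriers or 7 carriers of organic ions and carnitine passed. The sodium-calcium exchangers Slc8a1 and Slc24a3 were at 0.04 ± 0.07 and -0.03 ± 0.06, the carnitine transporter Slc22a5 was at 0.01 ± 0.07 and Slc16a7 was at -0.12 ± 0.14. The manganese exporter Slc30a10 had a value of -1.07 ± 0.41 that did not pass (adjusted p = 0.0835).

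In B6 mice alone, treated B6 against set 1, 12 of 210 members rose and 16 fell. This was 13.3% of members, beside 8.46% of all genes (3.95% rose and 4.52% fell). None passed the study's threshold by edgeR's quasi-likelihood test (0.0475% of all genes did). An unadjusted p under 0.05 was found for 76 members (36.2%, beside 29.5% of all genes). By DESeq2, 15 members passed the study's threshold, beside 227 genes up and 214 down of all 12643. By edgeR's exact test 17 members did, beside 262 genes up and 218 down. The largest rise was of Slc2a10, from 6.69, 5.37 and 5.59 CPM to 10.2, 13 and 12.5 CPM (log2 fold change 1.02 ± 0.16, adjusted p = 0.0185). The next were Slc34a2, the sodium-phosphate cotransporter of epithelial apical membranes (0.88 ± 0.22, adjusted p = 0.0455), and Slc43a1, a carrier of large neutral amino acids (0.84, adjusted p = 0.0228), which was in the B6 table only, at 3.64 to 3.79 CPM untreated and 5.89 to 7.22 CPM treated. Slc9a3r2, Slc43a2, Slc27a4, the heme transporter Slc48a1, Slc6a6, the vesicular nucleotide transporter Slc17a9 and the zinc carrier of the ER Slc39a7 also rose, by 0.29 to 0.57.

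The deepest B6 falls were those of Slc26a2 (-1.0 ± 0.20, adjusted p = 0.0254), Slc40a1 (-0.93 ± 0.13, adjusted p = 0.0155), Slc6a18 (-0.80 ± 0.12, adjusted p = 0.0164), Slc6a14 (-0.78 ± 0.15, adjusted p = 0.0227) and Slc18a2 (-0.75, adjusted p = 0.0274), along with a pair of genes outside the naming rule for this comparison, Slc36a1, a proton-coupled amino acid carrier (-0.97, adjusted p = 0.0422), and Slc1a2, a glutamate transporter (-0.91, adjusted p = 0.0366), named after their values were seen. Slc25a36, Slc5a3, Slc35a3, Slc25a46 and Slc2a13 fell by 0.45 to 0.65. The choice of untreated B6 set mattered for some of them: against set 2 the log2 fold change was -0.23 for Slc26a2 (adjusted p = 0.501), -0.05 for Slc36a1 (adjusted p = 0.911) and -0.27 for Slc26a3 (adjusted p = 0.428), but -0.51 for Slc40a1 (adjusted p = 0.0472) and -0.60 for Slc6a14 (adjusted p = 0.0299). Of the 28 members that passed, 14 also passed against set 2. In all, 37 members passed against set 2, beside 901 genes up and 939 down of all 12417. All 7 goblet markers were higher in treated B6 (median 0.80, 4 rose), 8 of 9 leukocyte markers were higher (0.34, none passed) and all 6 measured neuron and glia markers were lower (-0.28, 2 fell). The summed neuron and glia level was 69.1 to 89.0 CPM in B6 set 1 and 59.9 to 63.0 CPM in treated B6, but 51.5 to 57.4 CPM in B6 set 2, below the treated mice. Elavl4, S100b and Sox10 were not in the tables, and the part of these cells was not tested.

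The B6 result moved with GC content. The 12 members that rose had a GC content of 49.4% to 61.6% (median 55.5%), and the 16 that fell had 38.7% to 54.9% (median 44.3%). Spearman's rho between log2 fold change and GC content was 0.495 over 210 members and 0.602 over all genes, as a description, since the points share libraries. After the GC correction only Slc6a18 still passed, and with Xist as a covariate none of the 28 did. The count over all genes also shrank, from 499 up and 571 down to 61 and 33 of 12537 after the GC correction. With Xist it was 10 up and 6 down of 12643. In the response of the mutants, rho was 0.305 over members and 0.149 over all genes.

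**Figure D3:**
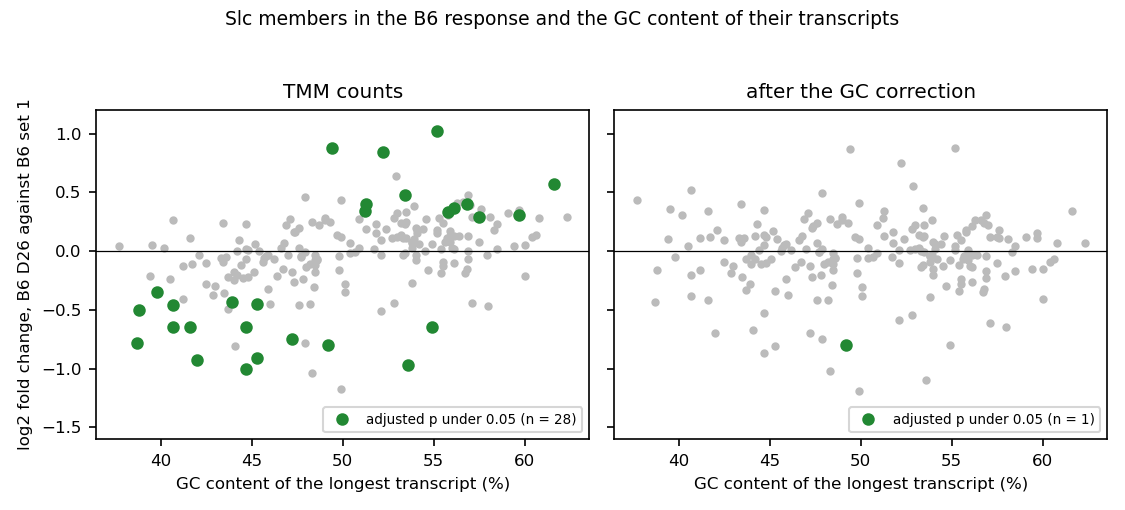
Log2 fold change of treated B6 against B6 set 1 (y axis) for each member against the GC content of its longest transcript (x axis, %), before and after the GC correction, with members under an adjusted p of 0.05 in green. The 28 green points follow the slope of the whole cloud on the left, and 1 of them, Slc6a18, is left on the right.

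In Irf1-/- mutants, treated against untreated, 2 of 214 members rose and 4 fell, which was 2.80%, beside 2.37% of all genes. None passed the study's threshold by edgeR's quasi-likelihood test (0.252% of all genes did), and 41 had an unadjusted p under 0.05 (19.2%, beside 18.6% of all genes). By DESeq2, 3 members passed the study's threshold, beside 152 genes up and 69 down of all 12692. By edgeR's exact test 5 members did, beside 188 genes up and 76 down. Slc5a9, given above by library, rose by 0.72 ± 0.10 (adjusted p = 0.0176) and passed in all 9 alternatives with all libraries, but not with every library left out. Slc39a6 rose, from 12.2, 15 and 12.1 CPM to 20.2, 20.2 and 18.4 CPM (0.58 ± 0.12, adjusted p = 0.0405), with no overlap of the groups. Slc1a1, a glutamate transporter, fell from 69.2, 58.5 and 57.5 CPM to 42.4, 43.1 and 45.3 CPM (-0.50 ± 0.08, adjusted p = 0.0273), and Slc1a7 fell by 0.51 on the log2 scale (SE 0.09, adjusted p = 0.0322). Both are sodium-coupled transporters of acidic amino acids. Slc25a24 fell (-0.32 ± 0.07, adjusted p = 0.0457). Slc15a2, a peptide transporter, fell from 22.5, 16 and 12.7 CPM to 7.80, 8.41 and 7.36 CPM (-1.11 ± 0.20, adjusted p = 0.0322), but it varied widely in other groups, from 0.932 to 15.5 CPM in B6 set 1, and its adjusted p was 0.502 when all 15 libraries shared 1 fit. With Xist as a covariate only Slc5a9 passed, beside 122 genes up and 57 down of all 12692 (190 and 111 without it). All 9 measured leukocyte markers were higher in treated mutants (median 0.56, 7 rose), and their part was not tested.

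The B6 response and that of the mutants share no library. Of the 27 members that passed in B6 and were tested in both, 23 had the same sign in the mutants (85.2%, beside 80.6% of all genes that passed in B6), and none passed in both. Of all genes, 83 passed in both, out of 1054 that passed in B6 and 285 that passed in the mutants. All 6 members that passed in the mutants had the same sign in B6. The difference between the responses was tested as an interaction. By DESeq2, 5 members passed at an adjusted p under 0.05, beside 258 genes with a higher and 144 with a lower response in mutants, of all 12483. At the study's threshold 2 members passed by DESeq2, beside 49 genes higher and 26 lower. By edgeR's quasi-likelihood test, 0 of 208 members passed at an adjusted p under 0.05, beside 0.0481% of all genes. None passed the study's threshold by it (0.0160% of all genes did). An unadjusted p under 0.05 was found for 30 members (14.4%, beside 16.9% of all genes). The smallest adjusted p were those of Slc2a10, whose response in mutants minus that in B6 was -0.99 ± 0.21 on the log2 scale (adjusted p = 0.077), and of Slc34a2 (-1.30 ± 0.31, adjusted p = 0.0887). By the quasi-likelihood test, no member was shown to respond differently in the genotypes.

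At steady state, untreated mutants against B6 set 2, 2 of 208 members fell and none rose (0.962%, beside 1.25% of all genes: 0.810% fell and 0.437% rose), and 0 passed the study's threshold by edgeR's quasi-likelihood test (0.405% of all genes did). An unadjusted p under 0.05 was found for 25 members, 12%, beside 10.4% of all genes. By DESeq2, 2 members passed the study's threshold, beside 31 genes up and 76 down of all 12588. By edgeR's exact test 3 members did, beside 44 genes up and 90 down. Slc4a4, the basolateral sodium-bicarbonate cotransporter, was at 213, 244 and 228 CPM in B6 set 2 and at 168, 122 and 108 CPM in untreated mutants. The groups did not overlap, and the log2 fold change was -0.79 ± 0.14 (adjusted p = 0.0281). B6 set 1, at 178, 148 and 175 CPM, lay between them and overlapped the mutants, and against it the log2 fold change was -0.34 (adjusted p = 0.209). Against both B6 sets together it was -0.56 (adjusted p = 0.0331). Slc30a10 was at 34.7, 39.4 and 32.1 CPM in B6 set 2, at 30.2, 27.8 and 39.6 CPM in B6 set 1 and at 21.7, 21.9 and 13.3 CPM in untreated mutants. The mutants lay below both B6 sets, with a log2 fold change of -0.90 ± 0.17 (adjusted p = 0.0363) against set 2 and -0.78 (adjusted p = 0.0402) against set 1. In a single fit of all 15 libraries, its adjusted p was 0.808. With set 1 in place of set 2 as control, 24 of 208 members passed, 10 up and 14 down, beside 332 up and 336 down of all 12530 genes in that comparison, among them Slc30a10 but not Slc4a4. With 1 library left out, Slc4a4 passed in 2 of 6 fits and Slc30a10 in 1 of 6.

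At D26, Slc30a10 was at 9.93, 11.5 and 34.7 CPM in B6 and at 0.970, 10.9 and 10.7 CPM in mutants. The B6 library at 34.7 CPM was replicate 3, the treated B6 library with Xist at 2328 CPM, and the mutant library at 0.970 CPM was replicate 1, with Xist at 11.6 CPM. Slc4a4 was at 127, 164 and 198 CPM in treated B6 and at 83.3, 100 and 113 CPM in treated mutants, which did not overlap, but the test was not passed (-0.74 ± 0.17, adjusted p = 0.0621).

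Because the mutants lack a DNA-binding protein, the promoters of both steady-state genes are shown, with those of the members that hold the core motif of the interferon regulatory factors. These are the 250 bases before each transcript start of RefSeq on GRCm38.p6, a different build from that of the deposited counts. The motif searched was the core GAAANNGAAA on both strands, with overlapping matches allowed, and it is in capitals where found. Sequences run from 5′ to 3′ on the strand of the gene. It was held by 978 of 32851 promoters (2.98%) and by 3 of the 211 promoters of the 160 members that could be matched (1.42%). The promoter of Slc30a10 at chr1:185454598-185454847 on the plus strand and those of Slc4a4 at chr5:88887010-88887259 and chr5:89027716-89027965, both on the plus strand, hold no match. The 3 with a match are Slc25a15, a mitochondrial ornithine carrier, at chr8:22398622-22398871 on the minus strand, Slc25a22, a mitochondrial glutamate carrier, at chr7:141435376-141435625 on the minus strand, and Slc37a1, a glucose-6-phosphate carrier of the ER, at chr17:31295974-31296223 on the plus strand.
Slc30a10: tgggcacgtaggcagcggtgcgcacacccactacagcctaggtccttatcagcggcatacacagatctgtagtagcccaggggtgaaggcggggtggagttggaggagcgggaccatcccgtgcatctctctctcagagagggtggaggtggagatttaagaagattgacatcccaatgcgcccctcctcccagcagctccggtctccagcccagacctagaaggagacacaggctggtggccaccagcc
Slc4a4, upstream start: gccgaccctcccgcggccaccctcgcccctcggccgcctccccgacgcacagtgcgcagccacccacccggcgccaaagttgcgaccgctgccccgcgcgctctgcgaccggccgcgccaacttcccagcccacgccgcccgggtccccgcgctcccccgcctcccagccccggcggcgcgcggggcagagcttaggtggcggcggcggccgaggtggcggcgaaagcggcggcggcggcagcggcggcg
Slc4a4, downstream start: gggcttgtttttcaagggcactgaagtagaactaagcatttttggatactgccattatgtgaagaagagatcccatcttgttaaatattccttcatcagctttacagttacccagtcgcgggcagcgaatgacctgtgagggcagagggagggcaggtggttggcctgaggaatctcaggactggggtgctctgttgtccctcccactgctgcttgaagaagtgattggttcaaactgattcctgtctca
Slc25a15: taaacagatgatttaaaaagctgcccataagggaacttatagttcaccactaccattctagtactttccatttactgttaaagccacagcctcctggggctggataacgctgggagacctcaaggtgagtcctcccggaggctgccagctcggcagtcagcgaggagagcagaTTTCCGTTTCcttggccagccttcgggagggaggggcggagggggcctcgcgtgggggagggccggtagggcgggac
Slc25a22: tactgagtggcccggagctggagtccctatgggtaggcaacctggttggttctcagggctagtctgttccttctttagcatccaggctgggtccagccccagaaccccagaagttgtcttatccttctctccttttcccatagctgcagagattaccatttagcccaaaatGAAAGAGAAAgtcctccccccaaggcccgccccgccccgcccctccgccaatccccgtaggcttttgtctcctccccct
Slc37a1: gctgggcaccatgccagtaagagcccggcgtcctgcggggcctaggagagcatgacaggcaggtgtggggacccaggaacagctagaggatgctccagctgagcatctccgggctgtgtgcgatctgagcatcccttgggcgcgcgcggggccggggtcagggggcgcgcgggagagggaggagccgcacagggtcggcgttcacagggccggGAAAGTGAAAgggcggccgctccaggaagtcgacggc

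In untreated mutants the 3 members with the core did not pass, with log2 fold changes against B6 set 2 of -0.06 ± 0.13 for Slc25a15, 0.16 ± 0.12 for Slc25a22 and -0.17 ± 0.09 for Slc37a1. These 3 genes were named for their promoters.

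After treatment, mutants against B6, 1 of 208 members was higher and 3 were lower in the mutants (1.92%, beside 2.05% of all genes: 0.937% higher and 1.11% lower). None passed the study's threshold by edgeR's quasi-likelihood test (0.385% of all genes did), and 36 had an unadjusted p under 0.05 (17.3%, beside 22.0% of all genes). By DESeq2, 5 members passed the study's threshold, beside 128 genes higher and 142 lower in mutants, of all 12483. By edgeR's exact test 6 members did, beside 126 genes higher and 149 lower. This comparison shares its libraries with both treatment responses. Slc9a3r1, a scaffold of the apical membrane and not a carrier, was at 161, 154 and 183 CPM in B6 and at 99.2, 98.1 and 119 CPM in mutants (-0.67 ± 0.11, adjusted p = 0.0241). The apical sodium-proton exchanger Slc9a2 was at 284, 243 and 276 CPM in B6 and 183, 186 and 203 CPM in mutants (-0.51 ± 0.10, adjusted p = 0.0416). Neither overlapped between treated genotypes. At steady state Slc9a3r1 was at 111, 91.4 and 119 CPM in B6 set 2 and 101, 105 and 92.4 CPM in mutants, which overlapped, while B6 set 1, at 124, 160 and 144 CPM, lay above both.

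Slc34a2 was at 101, 49.3 and 67.0 CPM in treated B6 and at 27.6, 37.5 and 27.1 CPM in treated mutants (-1.26 ± 0.24, adjusted p = 0.0419), again without overlap. Slc6a18 was the only member higher in treated mutants, at 30.7, 40.1 and 37.1 CPM against 22, 22.8 and 20.7 CPM (0.70 ± 0.12, adjusted p = 0.0241). The sodium-proton exchanger Slc9a3 had a log2 fold change of -0.55 ± 0.12 that did not pass (adjusted p = 0.0564). Treated B6 libraries carry the GC dependence, and over members Spearman's rho between this difference and GC content was -0.513. After the GC correction the adjusted p was 0.051 for Slc9a3r1, 0.0949 for Slc9a2, 0.0665 for Slc34a2 and 0.0269 for Slc6a18. None of the 10 epithelial markers was higher in treated mutants than in treated B6 (median log2 difference -0.26, none passed), with summed levels of 7742 to 8793 CPM and 9599 to 10069 CPM, and 1 of 5 colonocyte markers was higher (-0.38, none passed), with 1094 to 1710 CPM and 1525 to 1956 CPM. Their part was not tested. Leaving out 1 library, Slc9a3r1 and Slc6a18 each passed in 2 of 6 fits and Slc9a2 and Slc34a2 in 1 of 6.

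**Figure D4:**
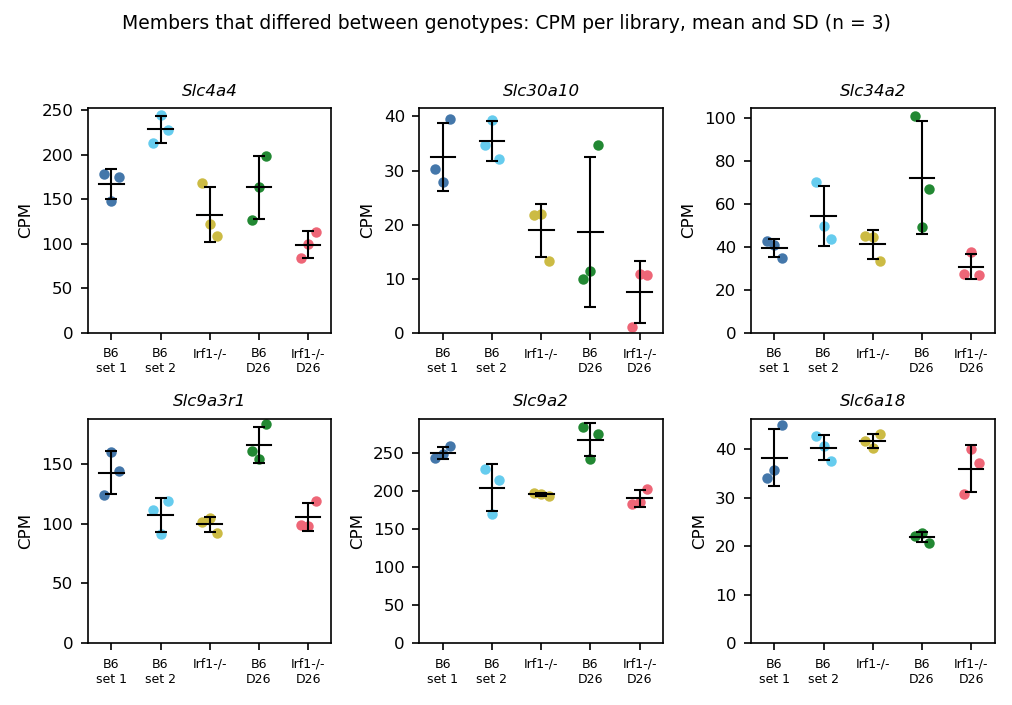
CPM per library (y axis, from 0) of the 6 members that differed between genotypes in either state, with group mean and SD (n = 3) for the 5 groups on the x axis. Slc4a4 and Slc30a10 passed in untreated mice and the other 4 at D26, where Slc6a18 was lower in treated B6 than in every other group.

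The 2 untreated B6 sets, which share genotype and treatment, differed in some members. Set 2 against set 1, 4 of 206 members fell and none rose (1.94%, beside 0.572% of all genes, and 0.403% that fell). None passed the study's threshold by edgeR's quasi-likelihood test (0.0644% of all genes did). By DESeq2, 4 members passed it, beside 77 genes up and 67 down of all 12417. By edgeR's exact test 5 members did, beside 111 genes up and 76 down. An unadjusted p under 0.05 was found for 56 members (27.2%, beside 17.2% of all genes). Slc36a1 was at 235, 282 and 251 CPM in set 1 and 137, 115 and 154 CPM in set 2 (-0.92 ± 0.11, adjusted p = 0.0102), and it passed with each of the 6 libraries left out. Slc37a2 was at 878, 885 and 710 CPM in set 1 and 501, 361 and 415 CPM in set 2 (-0.95 ± 0.13, adjusted p = 0.019). Both were apart without overlap. In a single fit of all 15 libraries, none of the 4 members that fell passed. Another member rose there, beside 45 genes up and 55 down of all 12370. With Xist as a covariate only Slc36a1 passed, beside 9 genes up and 13 down of all 12417.

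Slc26a2, given above in set 1, was at 863, 589 and 829 CPM in set 2 (-0.76 ± 0.14, adjusted p = 0.0425). Slc25a20, which carries acylcarnitines into mitochondria, was at 215, 239 and 183 CPM in set 1 and 141, 110 and 134 CPM in set 2 (-0.73 ± 0.12, adjusted p = 0.0276). The groups were apart for both. Slc20a1 was at 736, 358 and 645 CPM in set 2, below set 1 in each library, but did not pass (-0.82, adjusted p = 0.0991). In each of these 5 genes the untreated mutants (149 to 183 CPM for Slc36a1, 186 to 298 CPM for Slc37a2, 708 to 948 CPM for Slc26a2, 110 to 160 CPM for Slc25a20 and 473 to 576 CPM for Slc20a1) also lay below every library of set 1. Goblet markers were higher in set 2 (all 7, median 0.62), leukocyte markers lower (all 9, median -0.49) and colonocyte and neuron and glia markers lower (all 5, median -0.31, and all 6, median -0.53), none of them past the test. In set 2 the summed levels were 14444 to 18029 CPM for goblet, 190 to 246 CPM for leukocyte and 1252 to 2002 CPM for colonocyte markers. Their part was not tested, and what separated the sets was not given in the sources used here. The B6 response used set 1 as its control, and the steady-state comparison used set 2.

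**Figure D5:**
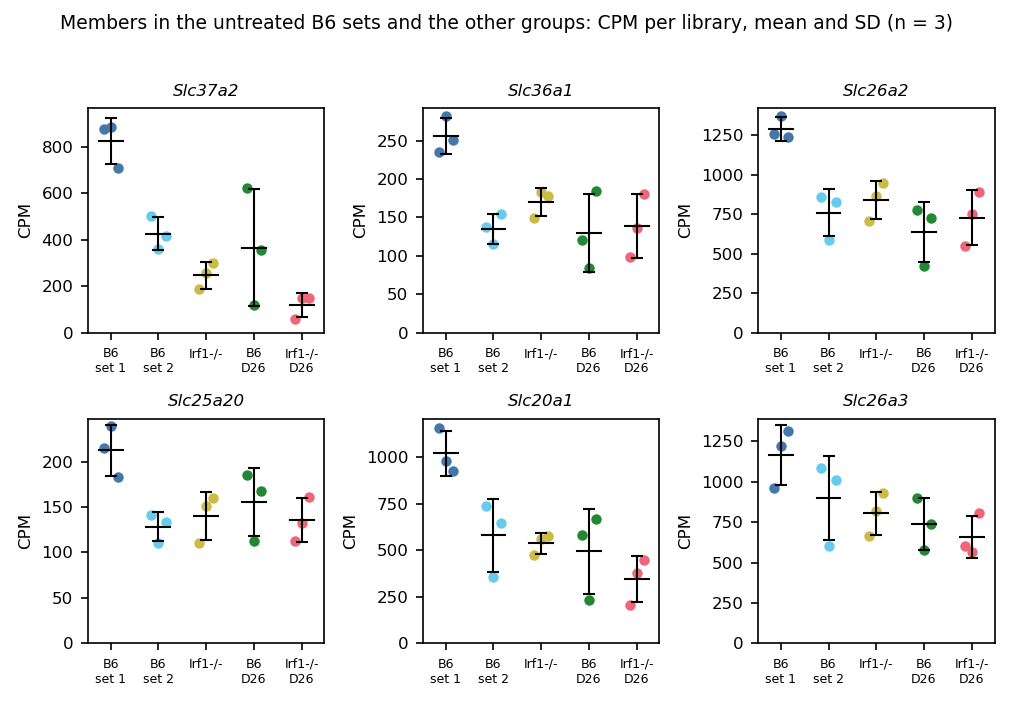
CPM per library (y axis, from 0) of members that were high in B6 set 1, with group mean and SD (n = 3) for the 5 groups on the x axis. For Slc36a1 set 1 lies at 235 to 282 CPM, above every library of the other 4 groups, which lie between 83.9 and 184 CPM.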

How the data were processed

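Ribosomal RNA-depleted, stranded libraries of distal colon were sequenced as paired-end reads. Per the submitters' processing notes, TopHat2 2.0.9, Bowtie 1.0.0, featureCounts and edgeR were used with mm9, and the strand setting of the counting was not given in the sources used here. The authors deposited 3 tables of read counts per gene, each of 2 groups, holding genes with at least 5 CPM in 3 libraries (checked: the lowest such value was 5.01). The untreated Irf1-/- counts are identical in 2 tables and were used once. Unused were 36 columns of per-sample CPM and log CPM and the authors' fold changes and p-values.

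Counts were fitted as deposited over all genes of the table(s) with edgeR 4.0.16 in R 4.3.3 (TMM factors, quasi-likelihood test, Benjamini-Hochberg adjustment). The SE of a log2 fold change was derived as its absolute value divided by the square root of the test's F statistic. Genes of 2 tables were intersected where a comparison spanned both. Replicates are separate mice of a group. CPM use TMM factors over the genes in all 3 tables. Lengths and GC content come from GENCODE M21 transcripts (GRCm38), matched by symbol, so no coordinates of the counted genes are given. The GC correction subtracted a lowess curve (span 0.3) of each library's log2 deviation on GC content. Alternatives were RLE factors, DESeq2 1.42.0, edgeR's exact test, all 15 libraries in 1 fit, a minimum of 10 CPM, the other or both untreated B6 sets, Xist as a covariate, GC correction, replicate number as a block, and leaving out each library. Scripts were tested on simulated counts. In each comparison the genes named were members past fold 1.5 and adjusted p 0.01, up to 10 per direction with the smallest p among those under 0.05, a list of 57 colon and mucosal carriers (48 present, of which 1 is not reported here), and the 10 most abundant per kb. Members and lists were chosen with earlier results of these data known.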

Additional observations from a re-analysis of the deposited data

How the results depend on the processing

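No member changed sign under any alternative while called. At the study's threshold, counts of members were as follows, where the values as reported were 0 except 3 for the mean response. With the adjusted p under 0.05 as the only threshold they were 2 at steady state, 28 in B6, 6 in the mutants, 52 in the mean response, 4 in treated genotypes and 4 between control sets. DESeq2 gave 2, 15, 3, 4, 5 and 4 in that order and 2 for the difference of responses. The exact test of edgeR gave 3 at steady state, 17 in B6, 5 in mutants, 6 in treated genotypes and 5 between control sets. Over all genes, the mean response by DESeq2 had 182 up and 56 down of 12483. The other all-gene counts by these tests are given above. The exact test could not be run for the difference and the mean, and no unfiltered table was used here. In 1 fit of all 15 libraries there were 9 members in B6 and 4 in treated genotypes, and with the 10 CPM minimum 1 in B6 and 1 between control sets. Of all 12370 genes in that fit, 113 were up and 184 down in B6, and 127 up and 113 down in treated genotypes. With the minimum, 14 were up and 15 down of 10924 in B6, and 3 up and 7 down of 10882 between control sets. With the other B6 set there were 4 members at steady state and 4 in B6, and with both sets 1 and 7. Of all genes, the other set gave 39 up and 95 down at steady state and 22 up and 49 down in B6. Both sets gave 19 up and 64 down, and 131 up and 169 down. The mean response had 0 members with Xist as a covariate, 0 after the GC correction, 0 with the block and 0 with both GC correction and block. Of all genes these settings gave, in that order, 38 up and 20 down, 83 and 16, 80 and 35, and 64 and 14. Leaving out 1 library gave 0 to 1 members at steady state, 0 to 5 in B6 and 0 to 0 in mutants. It gave 0 to 6 in the mean response, 0 to 0 in the difference and treated genotypes, and 0 to 1 between control sets. The highest mean count of members, 6, was without B6 D26 replicate 1, where 179 genes were up and 60 down of all 12483. The count of members was 0 without B6 set 1 replicate 2 or 3, any untreated mutant or mutant D26 replicate 1. At an adjusted p under 0.05, leaving out 1 library gave 0 to 37 members in B6 (0 without set 1 replicate 3), 0 to 7 in mutants and 0 to 2 at steady state. It gave 0 to 8 in treated genotypes, 1 to 11 between control sets and 35 to 59 in the mean response. Without set 1 replicate 3, 9 genes were up and 7 down of all 12643 in B6. Without B6 D26 replicate 1, which gave the 37 members, 850 were up and 683 down. At that threshold other settings moved counts of members by more than 1.5 times. DESeq2 and the exact test gave 7 and 9 at steady state, 17 and 13 in mutants, 15 and 14 in treated genotypes and 18 and 20 between control sets. Of all genes, DESeq2 gave 129 up and 189 down at steady state and 467 and 340 in mutants. In treated genotypes it gave 563 and 337, and between control sets 318 and 264. The exact test gave 165 and 208, 471 and 305, 460 and 313, and 380 and 286 in the same order. Of members, the GC correction left 1 in B6, 28 in the mean response and 1 in treated genotypes. Xist as a covariate gave 0, 19 and 8 there, 1 in mutants, 4 at steady state and 1 between control sets. A single fit of all libraries gave 48 members in B6, 24 in treated genotypes, 1 at steady state and 1 between control sets. In treated genotypes, all genes were 16 up and 84 down after the GC correction and 238 and 175 with Xist. At steady state with Xist they were 62 and 100. In the single fit they were 1007 up and 1345 down in B6, 1073 and 661 in treated genotypes, and 28 and 75 at steady state. Those between control sets are given above. The B6 response had 57 members with both untreated sets, beside 1383 genes up and 1503 down. Steady state had 24 members with the other set. The cause of these shifts was not tested.

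Replicate numbers were not taken as pairs in the main fits. Correlations of same-numbered deviations ran from -0.223 to 0.248. Differently numbered libraries were not compared, so these values cannot decide whether the numbers mark pairs. With the replicate block, members under an adjusted p of 0.05 were 1 in B6 (28 without it), 9 in mutants (6) and 49 in the mean response (52). They were 3 at steady state (2), 2 in treated genotypes (4) and 2 between control sets (4). All genes were, in that order, 32 up and 29 down, 225 and 137, 911 and 946, 61 and 103, 31 and 63, and 33 and 43. The mutant response with GC correction and replicate block had 1 member at the study's threshold, beside 46 genes up and 9 down of all 12581. With 3 mice per group, small changes of low members are hard to detect, and the treated B6 libraries' GC dependence and the Xist levels limit calls that rest on those libraries.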

Other observations

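Of 33 measured channels, pumps, aquaporins and related colonocyte genes, 2 rose and 7 fell in the mean AOM/DSS response (edgeR's quasi-likelihood test, adjusted p under 0.05), with a median log2 fold change of -0.14. Over all genes tested, 8.59% rose and 9.36% fell, and no test compared the lists. Aqp3, a water and glycerol channel, went from 4.14 ± 0.502 CPM (SD, n = 3) in B6 set 1 to 13.1 ± 3.49 CPM in treated B6, and from 5.89 ± 1.22 CPM in untreated to 13.7 ± 3.16 CPM in treated mutants, a log2 fold change of 1.44 ± 0.16 (adjusted p = 0.000667). Cldn15, a claudin that forms paracellular cation pores, rose by 0.50 ± 0.07 (adjusted p = 0.00201). The chloride channel Cftr fell from 208 ± 15.3 to 118 ± 11.3 CPM in B6 and from 221 ± 16.4 to 173 ± 31.2 CPM in mutants (-0.59 ± 0.08, adjusted p = 0.00147). The carbonic anhydrases Car1 and Car2, which supply bicarbonate, fell by 0.80 and 0.59 on the log2 scale (adjusted p = 0.00465 and 0.0156), and Fxyd4, a regulator of the sodium pump, fell by 1.10 (adjusted p = 0.00327).

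Of 34 measured ABC transporters, which use ATP to move substrates, 7 rose and 7 fell in the mean response (median -0.01), beside the same 8.59% and 9.36% of all genes. The cholesterol exporters Abcg1 and Abca1 rose by 0.92 ± 0.14 and 0.47 ± 0.11 (adjusted p = 0.00201 and 0.0139), and the drug efflux pumps Abcb1a, Abcb1b and Abcg2 fell by 0.46, 0.41 and 0.28 on the log2 scale (adjusted p = 0.0109, 0.0226 and 0.0155). Tap2, which loads peptides for MHC class I, was lower in mutants both untreated (39.9 ± 1.78 CPM in B6 set 2 and 21.0 ± 1.35 CPM in mutants, -0.92 ± 0.08, adjusted p = 0.000373) and treated (56.8 ± 11.2 and 22.3 ± 1.42 CPM, -1.37 ± 0.14, adjusted p = 0.00313). Of 18 measured genes with Slc symbols of other forms, such as Slc35f6, 2 rose and 2 fell in the mean response (median 0.09). The genes named in this paragraph and the one before were chosen after their values were seen.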
